A study of Mus musculus with 6 samples.

Results

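Endothelial junction and adhesion genes hold the cells of the vessel wall to each other and set what crosses between them. The 10 genes described here, of 45038 in the deposited table, were taken by gene symbol: Cdh5, Esam, Cldn5, Emcn, Robo4 and Clec14a, which serve as endothelial genes, Pecam1, Icam2 and S1pr1, which leukocytes also express, and Cdh2, which belongs to mesenchymal cells and heart muscle. S1pr1 was placed among the shared genes here because lymphocytes carry it. Each symbol matched 1 row. Their expression was compared between infarcted and uninjured heart in 6 mouse RNA sequencing libraries, 3 called MI (myocardial infarction) and 3 called Normal. All mice were C57BL/6, with an age of 6 to 8 weeks given for the ligation and none stated separately for the Normal mice, and carried Tie2-Cre;Rosa-LSL-tdTomato, in which Cre driven by the Tie2 promoter switches on the red reporter tdTomato. MI libraries came from infarcted tissue 3 weeks after ligation of the left anterior descending coronary artery, and Normal libraries from left ventricle labelled as having had no such surgery. In both groups tdTomato+F4/80- cells were sorted, F4/80 being a macrophage surface antigen. The Tie2 promoter is active in endothelium and also in part of the blood lineage, so the sort can hold leukocytes as well as endothelial cells. The titles number the libraries Ms1535, Ms1537 and Ms1608 in each group. Nothing in the labels says how the samples of a group differ, and a p-value here reflects only how these libraries scatter, which may be technical.

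VE-cadherin (Cdh5) makes the adherens junction of endothelium, claudin-5 (Cldn5) seals its tight junction, and ESAM (Esam) is an immunoglobulin-type protein of the same contacts. Endomucin (Emcn) is a sialomucin that coats the luminal surface, ROBO4 (Robo4) is a roundabout receptor that steadies vessel barriers, and CLEC14A (Clec14a) is an endothelial lectin-like receptor. PECAM-1 (Pecam1, CD31) and ICAM-2 (Icam2) stand at endothelial borders and on leukocytes and platelets, and S1PR1 (S1pr1) is the sphingosine-1-phosphate receptor that tightens endothelial contacts and lets lymphocytes leave lymphoid organs. N-cadherin (Cdh2) joins mesenchymal cells and cardiomyocytes, and gain of N-cadherin with loss of VE-cadherin is the textbook sign of endothelial-to-mesenchymal transition.

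1 library, Normal Ms1608, stood apart from the other 5, with endothelial genes near 0 and leukocyte genes high. Whether it was sorted differently or carries a wrong label was not tested, and each value for Normal that includes it is subject to that doubt. For Kdr, a VEGF receptor of endothelium, the MI libraries held 30.6, 63.1 and 11.9 FPKM and the Normal libraries 73.9, 44.6 and 0.486 FPKM, the last being Normal Ms1608. For Ptprc (CD45, carried by leukocytes) the MI libraries held 68.7, 77.9 and 75.9 FPKM and the Normal libraries 3.13, 4.72 and 173.8 FPKM. FPKM counts fragments per kilobase of transcript, scaled to the mapped fragments of the library. The 3 values of a group follow the order Ms1535, Ms1537, Ms1608 throughout. Of 12 endothelial markers outside the 10 genes, 10 were under 1 FPKM in Normal Ms1608 and none was listed at 0. The list summed to 420.2, 1016 and 269 FPKM across MI and to 1169, 870.5 and 11.4 FPKM in Normal. Egfl7 alone gave 278, 716 and 207 FPKM of the MI sums and 909, 669 and 5.27 FPKM of the Normal sums. The median of the 12 was 7.69, 22.4 and 5.33 FPKM across MI and 15.8, 11.6 and 0.412 FPKM across Normal. By that median MI Ms1537 was the highest library and Normal Ms1608 again the lowest. The tests below are therefore given with and without Normal Ms1608. Tek, the Tie2 gene itself, was at 4.29, 12.2 and 2.24 FPKM across MI and at 5.49, 8.29 and 0.253 FPKM across Normal. Depth, read from the steps of 1 fragment in the low values, was 34.0 to 47.5 M fragments in MI and 34.3 to 42.6 M in Normal, M standing for the prefix mega. The deposited values are a mixture over all sorted cells, so fewer cells of a type and less RNA per cell cannot be told apart.

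The 6 endothelial members were lower in Normal Ms1608 than in every other library, at 0.130 to 1.202 FPKM with none listed at 0. None of them passed the test between MI and Normal. Cdh5 (ENSMUSG00000031871.8, chr8:104101625-104144511, GRCm38) was at 27.6, 78.8 and 6.50 FPKM across MI and at 40.3, 24.7 and 1.202 FPKM across Normal. MI Ms1537 was the highest library for VE-cadherin, Normal Ms1608 the lowest, and the groups overlapped. Esam (ENSMUSG00000001946.10, chr9:37528078-37538319) was at 31.2, 40.5 and 10.1 FPKM across MI and at 85.6, 23.1 and 0.459 FPKM across Normal. Emcn (ENSMUSG00000054690.14, chr3:137341067-137432185) was at 28.0, 75.7 and 13.5 FPKM across MI and at 79.8, 61.8 and 0.630 FPKM across Normal. Both genes were highest in Normal Ms1535, and MI Ms1608 held the least of the MI libraries. Clec14a (ENSMUSG00000045930.2, chr12:58264720-58269290) was at 15.3, 25.4 and 3.67 FPKM across MI and at 37.9, 24.4 and 0.220 FPKM across Normal. Cldn5 (ENSMUSG00000041378.1, chr16:18776847-18778262) was at 3.24, 15.9 and 2.35 FPKM across MI and at 17.4, 6.50 and 0.130 FPKM across Normal. Robo4 (ENSMUSG00000032125.16, chr9:37401897-37415115) was at 3.06, 12.6 and 2.55 FPKM across MI and at 13.7, 8.40 and 0.167 FPKM across Normal. The 6 genes thus shared the same lowest library in each group, MI Ms1608 and Normal Ms1608. MI Ms1608 also held the largest summed level of cardiomyocyte markers, at 1046 FPKM against 149 to 218 FPKM in the other MI libraries. Of these 1046 FPKM, Myl2 alone gave 629. Normal Ms1535 held 829 FPKM of the same markers and the largest sum of the 6 endothelial members, 275 FPKM. The part of cardiomyocyte RNA in the low endothelial values of MI Ms1608 was not tested.

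**Figure D1:**
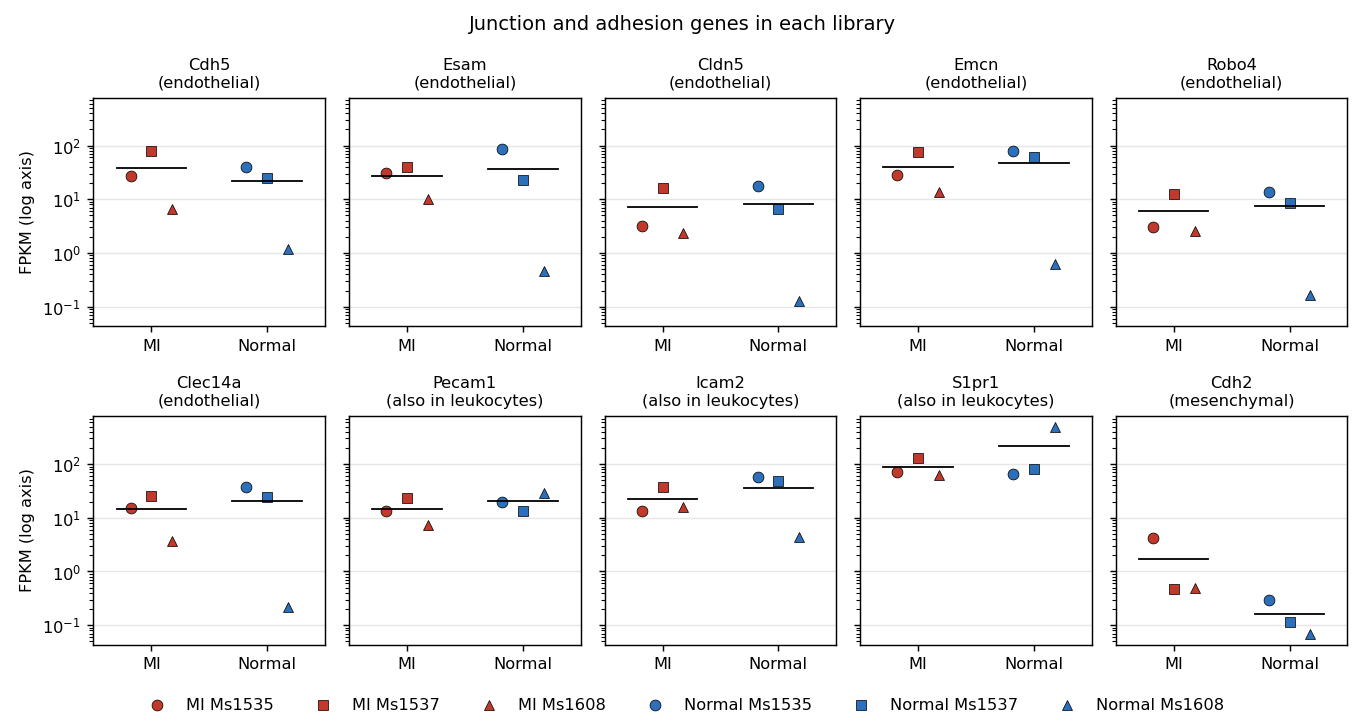
FPKM of the 10 genes on a log axis, MI in red on the left and Normal in blue on the right of each panel, with 1 point per library (circle Ms1535, square Ms1537, triangle Ms1608) and a line at the group mean of 3 libraries. In the 6 endothelial panels the Normal Ms1608 triangle lies between 0.130 and 1.202 FPKM, below all other points, whereas in the Pecam1 and S1pr1 panels it is the highest point, at 28.3 and 493.9 FPKM.

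Promoter sequence was available for 4 of the 10 genes, all of them endothelial members whose levels were low in the same libraries. They are shown because the GGAA core bound by ETS factors, the family of Erg, is a textbook element of endothelial promoters. Each runs from 250 bases before to 50 bases after the start in RefSeq on GRCm38.p6, is written 5′ to 3′ on the strand of the gene, and has GGAA, or TTCC where the core is on the other strand, in capitals.
Emcn, chr3:137340828-137341127, plus strand: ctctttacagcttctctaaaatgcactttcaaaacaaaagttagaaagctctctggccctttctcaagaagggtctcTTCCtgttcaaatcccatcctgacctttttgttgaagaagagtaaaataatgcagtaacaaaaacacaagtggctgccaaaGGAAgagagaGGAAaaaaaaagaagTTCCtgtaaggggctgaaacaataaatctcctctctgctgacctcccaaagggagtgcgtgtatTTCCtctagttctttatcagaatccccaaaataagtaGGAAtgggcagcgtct
Robo4, chr9:37401722-37402021, plus strand: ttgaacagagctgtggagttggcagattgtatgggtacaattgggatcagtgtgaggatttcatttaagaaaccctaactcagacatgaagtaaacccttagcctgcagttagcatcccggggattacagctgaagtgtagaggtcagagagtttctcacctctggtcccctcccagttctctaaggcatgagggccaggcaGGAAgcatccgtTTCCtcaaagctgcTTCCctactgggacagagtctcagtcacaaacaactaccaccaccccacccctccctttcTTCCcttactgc
Clec14a, chr12:58269209-58269508, minus strand: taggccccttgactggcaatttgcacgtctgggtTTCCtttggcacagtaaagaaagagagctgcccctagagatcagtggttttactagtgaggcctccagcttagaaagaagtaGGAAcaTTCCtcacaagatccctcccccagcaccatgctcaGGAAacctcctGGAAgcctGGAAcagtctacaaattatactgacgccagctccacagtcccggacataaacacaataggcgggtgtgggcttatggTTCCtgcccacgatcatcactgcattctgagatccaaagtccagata
Cldn5, chr16:18776597-18776896, plus strand: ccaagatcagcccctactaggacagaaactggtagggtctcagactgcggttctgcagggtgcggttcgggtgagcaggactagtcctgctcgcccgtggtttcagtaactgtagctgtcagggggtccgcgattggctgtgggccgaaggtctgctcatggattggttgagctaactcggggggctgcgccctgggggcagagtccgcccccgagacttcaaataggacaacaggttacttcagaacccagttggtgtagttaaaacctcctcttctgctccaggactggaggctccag
The core occurred 6 times in Emcn, 4 times in Robo4, 7 times in Clec14a and 0 times in Cldn5, counted on both strands. Of 32851 RefSeq promoter windows of the same length, 96.0% held at least 1 core, with a median of 3. The longer form AGGAAG, which contains the core, occurred 2 times in Emcn and 1 time in Robo4, and 35.4% of windows held it. The Sp1 box GGGCGG occurred 1 time, in Cldn5, with 35.7% of windows holding it. The E-box CANNTG occurred 1 time in Emcn and in Cldn5 and 2 times in Robo4, with 72.3% of windows holding it. Neither TATAAA (13.6% of windows) nor AGATAA (11.2%) was found in the 4. These matches describe letters in a window and carry no test. Whether they bear on the levels of these genes in any library was not tested.

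The deficit of the endothelial members in Normal Ms1608 differed in size between genes. Relative to the mean of Normal Ms1535 and Normal Ms1537, Normal Ms1608 was 142-fold lower for Clec14a, 118-fold for Esam, 112-fold for Emcn, 92.1-fold for Cldn5 and 66.3-fold for Robo4. For Cdh5 it was 27.0-fold lower, the smallest of the 6. At the implied depth, the Cldn5 value in Normal Ms1608 corresponds to about 6.06 fragments and the Clec14a value to about 35.7, against 282 and 3693 in Normal Ms1537, so the fold for Cldn5 rests on few fragments. These folds compare single libraries of 1 group and have no replicate.

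Of the 3 members that leukocytes share, Pecam1 and S1pr1 were high in Normal Ms1608, unlike these 6, whereas Icam2 was low there. Pecam1 (ENSMUSG00000020717.16, chr11:106654217-106750628) was at 13.3, 23.7 and 7.195 FPKM across MI and at 19.3, 13.2 and 28.3 FPKM across Normal, so Normal Ms1608 was its highest library. S1pr1 (ENSMUSG00000045092.8, chr3:115710433-115715072) was at 70.5, 128.8 and 63.5 FPKM across MI and at 66.5, 82.0 and 493.9 FPKM across Normal. For S1pr1 5 libraries lay within a factor of 2.03 of each other, and Normal Ms1608 was 6.65-fold above the mean of the other Normal libraries, against 1.75-fold for Pecam1. Icam2 (ENSMUSG00000001029.12, chr11:106377656-106388075) was at 13.6, 37.5 and 15.9 FPKM across MI and at 56.6, 47.6 and 4.41 FPKM across Normal. Icam2 was thus low in Normal Ms1608 like the endothelial members, although its 11.8-fold deficit was smaller than any of theirs. The 12 leukocyte markers summed to 2585, 2931 and 2664 FPKM in MI and to 323, 491 and 4642 FPKM across Normal, with none listed at 0 in any library. T-cell Cd3e stood at 12.5, 69.1 and 1.96 FPKM across MI and at 0.968, 3.39 and 15.7 FPKM across Normal. The highest and the next highest library were Normal Ms1608 and MI Ms1537 for both S1pr1 and the leukocyte sum. The largest part of that sum was Cd52, at 1600, 1787 and 1258 FPKM across MI. By the median of the 12 leukocyte markers, 84.8, 73.5 and 89.4 FPKM across MI, MI Ms1537 was instead the lowest MI library. Platelets also carry Pecam1 and Icam2. The 6 platelet markers summed to 46.4, 68.5 and 80.9 FPKM across MI and to 24.7, 36.0 and 3.73 FPKM across Normal, with 0 to 2 of them listed at 0 in a library. Most of each sum was Pf4, at 35.1, 68.2 and 59.2 FPKM across MI and at 15.1, 30.6 and 2.27 FPKM across Normal. The median of the 6 was 2.74, 0.0243 and 2.41 FPKM across MI and 1.27, 0.843 and 0.105 FPKM across Normal. By that median MI Ms1537 was the lowest MI library. Pericyte and smooth muscle markers, 10 genes, summed to 27.3, 33.5 and 25.9 FPKM across MI and to 31.6, 31.8 and 1.21 FPKM across Normal. These sums joined genes that differed in direction. Rgs5 was at 7.14, 3.67 and 7.09 FPKM across MI and at 20.6, 17.1 and 0.306 FPKM across Normal. Pdgfrb was at 4.10, 10.6 and 0.98 FPKM across MI and at 0.854, 0.361 and 0.0407 FPKM across Normal. Des gave 13.3 FPKM of the MI Ms1608 sum. Similar sums thus do not show that the single genes were unchanged. The 5 erythroid markers summed to 333, 1464 and 6721 FPKM across MI and to 5291, 5303 and 816 FPKM across Normal. The part of leukocyte and platelet RNA in the Pecam1, Icam2 and S1pr1 values was not tested.

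**Figure D2:**
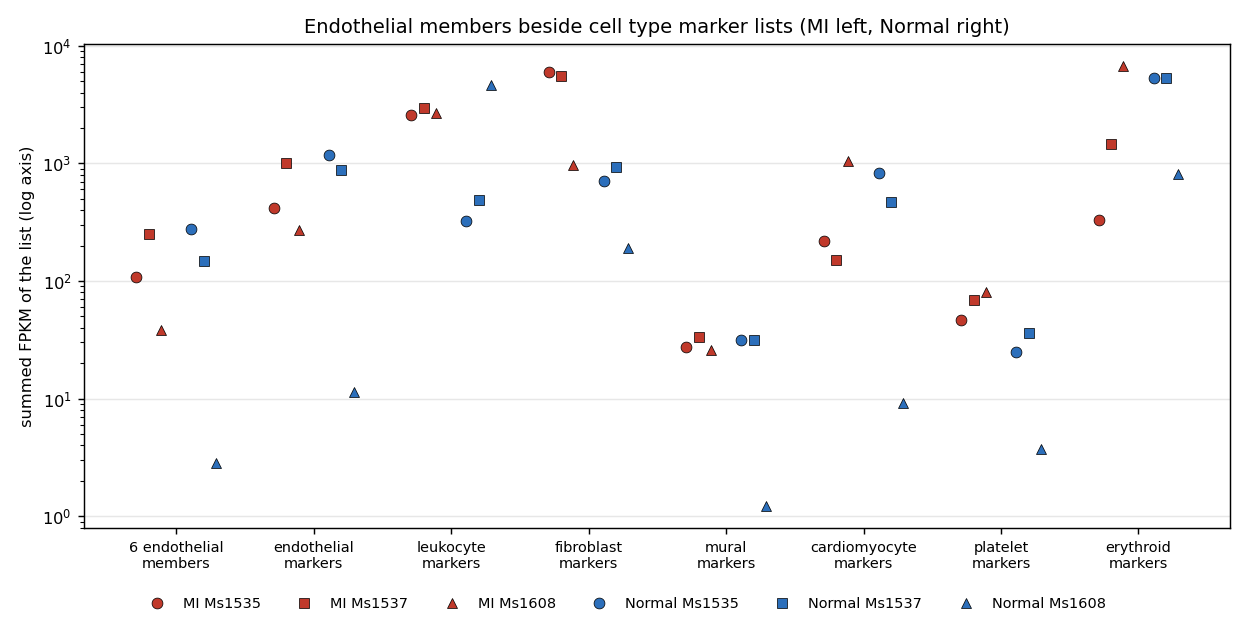
Summed FPKM (log axis) of the 6 endothelial members and of 7 marker lists in each library, MI in red on the left and Normal in blue on the right of each list. Normal Ms1608 is the lowest point for endothelial members, at 2.81 FPKM, and the highest for leukocyte markers, at 4642 FPKM.

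A ratio to Cdh5 within the same library does not depend on how libraries are scaled. Pecam1 over Cdh5 was 0.483, 0.300 and 1.11 in MI and 0.479, 0.534 and 23.6 in Normal. S1pr1 over Cdh5 was 2.56, 1.63 and 9.78 in MI and 1.65, 3.32 and 411 in Normal. For both genes the ratio overlapped between MI and the Normal pair Ms1535 and Ms1537. The library with the least Cdh5 in each group had the highest ratio, which dividing by Cdh5 favours in itself. Clec14a over Cdh5 was 0.555, 0.323 and 0.565 in MI and 0.942, 0.987 and 0.183 in Normal. Esam over Cdh5 was 1.13, 0.514 and 1.55 in MI and 2.13, 0.936 and 0.382 in Normal. Robo4 over Cdh5 was 0.111, 0.160 and 0.393 in MI and 0.341, 0.340 and 0.139 in Normal. Cldn5 over Cdh5 was 0.118, 0.202 and 0.361 in MI and 0.433, 0.263 and 0.108 in Normal. For all 4 genes the MI and Normal ratios overlapped when Normal Ms1608 was counted. Against the Normal pair Ms1535 and Ms1537 alone, Clec14a over Cdh5 was lower in every MI library, while Esam, Robo4 and Cldn5 still overlapped. Emcn over Cdh5 was 1.01, 0.961 and 2.08 in MI and 1.98, 2.505 and 0.524 in Normal. Icam2 over Cdh5 was 0.492, 0.476 and 2.45 in MI and 1.41, 1.93 and 3.67 in Normal. These ratios were compared without a test, since with 3 libraries against 3 an exact two-sided permutation test can give no p below 0.1.

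**Figure D3:**
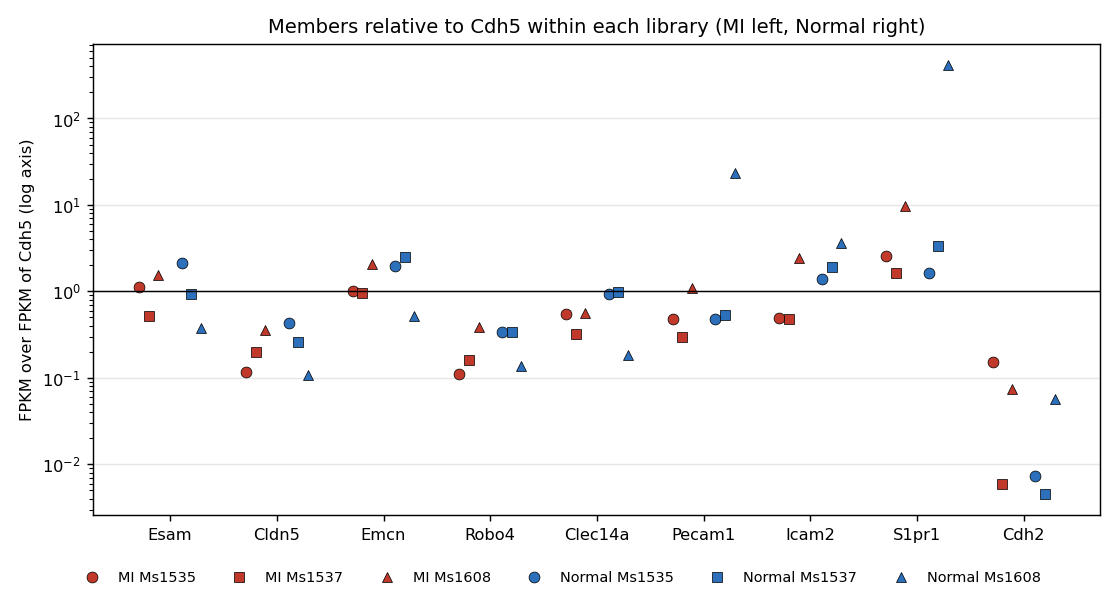
FPKM of each gene divided by FPKM of Cdh5 in the same library, on a log axis, MI in red on the left and Normal in blue on the right. In Normal Ms1608 the ratio is 23.6 for Pecam1 and 411 for S1pr1, and below 1 for the 5 other endothelial members.

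Cdh2 (ENSMUSG00000024304.11, chr18:16588877-16809246) was the member with the least RNA. It was at 4.17, 0.469 and 0.488 FPKM across MI and at 0.294, 0.113 and 0.0681 FPKM across Normal, so every MI library lay above every Normal library, with most of the MI mean coming from MI Ms1535. Among the 30727 genes above 0 in at least 1 library, 12.6% showed this separation. Cdh2 did not reach the expression filter of at least 1 FPKM in at least 3 libraries. In the fit without that filter its log2 difference was 0.96 (SE 0.60, adjusted p = 0.649 by limma, unadjusted p = 0.160), and 7.05% of all genes in that fit had an unadjusted p under 0.05. Without Normal Ms1608 it was 0.90 (SE 0.73, adjusted p = 0.580 by limma). Without MI Ms1535 it was 0.36 (SE 0.17, adjusted p = 0.754 by limma). Cdh2 over Cdh5 was 0.151, 0.00596 and 0.0751 in MI and 0.00729, 0.00459 and 0.0567 in Normal, which overlapped. Beside it, the 10 fibroblast markers summed to 5921, 5511 and 974 FPKM in MI and to 707, 926 and 191 FPKM across Normal, with none listed at 0. The 10 cardiomyocyte markers summed to 218, 149 and 1046 FPKM in MI and to 829, 465 and 9.11 FPKM across Normal, with 1, Nppa, listed at 0 in Normal Ms1608. Col1a1, a collagen gene of fibroblasts, was at 242, 72.7 and 20.4 FPKM across MI and at 11.6, 9.52 and 3.10 FPKM across Normal. The part of these cells in the Cdh2 values was not tested.

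In the test over all genes (limma with its trend option on log2(FPKM + 1), Benjamini-Hochberg adjustment), 0 of the 9 tested members passed the threshold of 0.05, where 0.00983% of 10168 tested genes (1 gene) did. At an unadjusted p under 0.05 the count was also 0 of 9, against 16.3% of all tested genes. Of the 9 tested members, 0 had all MI libraries above all Normal libraries, as 25% of all tested genes had, and 0 had them below, as 0.354% had. The 6 endothelial members had log2 differences between 0.10 for Robo4 (SE 1.02, adjusted p = 0.972 by limma) and 0.96 for Cdh5 (SE 1.21, adjusted p = 0.702 by limma). Their median was 0.45, while the median of all tested genes was 0.78. The 3 shared members lay below 0, with -0.74 for S1pr1 (SE 0.83, adjusted p = 0.661 by limma), -0.51 for Pecam1 (SE 0.71, adjusted p = 0.731 by limma) and -0.22 for Icam2 (SE 0.97, adjusted p = 0.920 by limma). The 95% limits were wide, from -1.73 to 3.65 for Cdh5 and from -2.10 to 1.07 for Pecam1. The direction of the endothelial members depended on the scaling, since the median of the 6 was -0.39 with median-ratio scaling, -0.34 with upper-quartile and -0.69 with quantile scaling, when all tested genes had medians of 0.02, 0.20 and -0.05.

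Leaving out Normal Ms1608 turned the endothelial members to the other side. That library was singled out for its low endothelial genes, so leaving it out raises the Normal mean of these genes. The direction of the move was thus set beforehand, and the shares below are descriptions. All 6 then had log2 differences below 0, against 12.3% of all tested genes, with a median of -0.97 where all tested genes had 0.83. The values were -1.32 for Clec14a (SE 0.72, adjusted p = 0.230 by limma), -1.16 for Emcn (SE 0.67, adjusted p = 0.247 by limma), -1.02 for Robo4 (SE 0.67, adjusted p = 0.301 by limma) and -0.34 for Cdh5 (SE 0.87, adjusted p = 0.781 by limma). Icam2 had -1.32 (SE 0.53, adjusted p = 0.136 by limma, unadjusted p = 0.0354), and its 3 MI libraries lay below both remaining Normal libraries, as did 1.75% of all tested genes. Of the 9, 0 had all MI libraries above both, where 52.6% of all tested genes did. Pecam1 stayed below 0, at -0.25 (SE 0.57, adjusted p = 0.754 by limma), and S1pr1 turned to 0.17 (SE 0.46, adjusted p = 0.792 by limma). By limma, 0 of 9 members passed the threshold, where 4.51% of all tested genes did, and 1 of 9, Icam2, had an unadjusted p under 0.05, against 31.6% of all tested genes. Scaling the 5 libraries to a common centre moved all 9 tested members below 0. Their median was then -1.84 with median-ratio, -1.95 with upper-quartile and -1.90 with quantile scaling, where 45.4%, 50.1% and 52.3% of all tested genes lay below 0. At an unadjusted p under 0.05 by limma, 7, 8 and 7 of the 9 lay lower in MI under these scalings, against 7.2%, 8.76% and 8% of all tested genes. So did 10, 11 and 11 of the 12 endothelial markers outside the 10 genes, so this was not particular to the members. Of the 12 leukocyte markers, 11 lay higher in MI at that level under each scaling. After adjustment 0 of 9 passed in each, where 0.0197%, 0.0295% and 0.0197% of all tested genes did. These scalings of 5 libraries were chosen after the values were seen. With limma array weights, which give each library a weight from its residuals, Icam2 alone passed among the 9 (log2 difference -1.45, adjusted p = 0.0410, the lowest of a range up to 0.993 over the alternatives run), where 32.3% of all tested genes passed. With these weights and no expression filter Icam2 did not pass (log2 difference -1.06, adjusted p = 0.522 by limma). The weighted fit shares its libraries with the fit that left out Normal Ms1608, where Icam2 had -1.32, so it is not separate support. Without both Ms1608 libraries 0 of 9 passed, where 14.4% of all tested genes did.

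**Figure D4:**
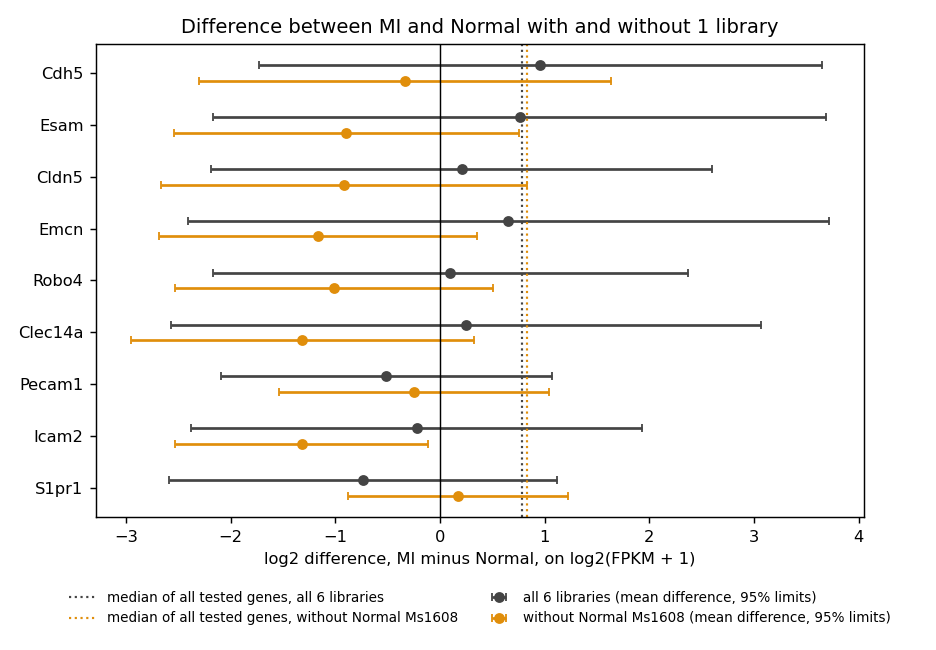
Log2 difference (MI minus Normal on log2(FPKM + 1)) of the 9 tested genes with 95% limits from limma, for all 6 libraries in grey and without Normal Ms1608 in orange, and dotted lines at the median of all tested genes. The 6 endothelial genes lie above 0 in grey and below 0 in orange, and of all limits shown only those of Icam2 without Normal Ms1608 leave out 0.

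The place of each gene among the 10168 tested genes of its own library does not depend on scaling, and was looked at after the values were seen. Counts without Normal Ms1608 here again leave out a library singled out for its low endothelial genes. Icam2 stood above 65.0%, 82.4% and 76.5% of tested genes in MI and above 93.8%, 93.9% and 54.9% in Normal. Emcn stood above 80.6%, 90.8% and 73.3% in MI and above 95.3%, 95.01% and 33.8% in Normal. Robo4 stood above 22.9%, 59.3% and 28.7% in MI and above 80.4%, 74.7% and 20.5% in Normal. In 7 of the 9 tested members all 3 MI libraries ranked below both Normal Ms1535 and Normal Ms1537, while 18.5% of all tested genes did. The exceptions were Cdh5, which stood above 80.3%, 91.2% and 55.7% in MI and above 91.7%, 88.9% and 40.1% in Normal, and S1pr1. With Normal Ms1608 included, 1 of 9 separated, against 6.78% of all tested genes. That gene was Pecam1, above 64.6%, 74.3% and 58.5% of tested genes in MI and above 84.8%, 82.2% and 81.0% in Normal.

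By mean level the members kept a similar order in both groups. S1pr1 came first, at 87.6 ± 35.8 FPKM for MI and 214 ± 242 FPKM for Normal (n = 3 each, ± SD, as for all group means here). Its lead in Normal came mostly from Normal Ms1608, at 493.9 FPKM. Normal Ms1535 and Normal Ms1537 averaged 74.3 FPKM for S1pr1 and 70.8 FPKM for Emcn. Emcn followed with 39.1 ± 32.6 FPKM for MI and 47.4 ± 41.5 FPKM for Normal. Then came, in MI, Cdh5, Esam, Icam2, Clec14a and Pecam1, from 37.6 ± 37.2 to 14.7 ± 8.33 FPKM, and in Normal Esam, Icam2, Cdh5, Clec14a and Pecam1, from 36.4 ± 44.1 to 20.3 ± 7.63 FPKM. Cldn5 had 7.17 ± 7.59 FPKM for MI and 8.02 ± 8.76 FPKM for Normal, and Robo4 6.08 ± 5.68 FPKM for MI and 7.43 ± 6.82 FPKM for Normal. Cdh2 came last, at 1.71 ± 2.13 FPKM for MI and 0.158 ± 0.119 FPKM for Normal. The libraries of each gene overlapped with those of its neighbours in this order in both groups, and for Cdh2 and Robo4 in Normal this overlap came from Normal Ms1608, where Robo4 was at 0.167 FPKM, the other Normal libraries holding 13.7 and 8.40 FPKM of it.

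The partners of these proteins were read from a list of 39 genes, all found in the table, of which 26 reached the expression filter. By limma 0 of 26 passed the threshold, 3 had an unadjusted p under 0.05, against 16.3% of all tested genes, and 25 of 26 lay above 0, with a median of 0.73 where all tested genes had 0.78. Without Normal Ms1608 the median was -0.13, where all tested genes had 0.83, and 1 of 26 passed, where 4.51% of all tested genes did. Of the catenins and other cadherin partners 0 of 6 tested passed, and Ctnnd1, p120-catenin that keeps cadherins at the surface, had the lowest p (log2 difference 1.12, SE 0.73, adjusted p = 0.432 by limma). The beta-catenin gene, used by most cells, was not among those near 0 in Normal Ms1608, where Ctnnb1 was at 18.5 FPKM, with 29.4 and 23.1 FPKM in the other Normal libraries and 26.9, 59.6 and 15.6 FPKM in MI. Jup, plakoglobin, was at 11.7, 35.4 and 6.60 FPKM across MI and at 54.0, 16.8 and 1.498 FPKM across Normal. Of the tight junction genes 0 of 7 tested passed, with Marveld2, tricellulin, lowest in p (0.78, SE 0.58, adjusted p = 0.486 by limma). Tjp1, the scaffold ZO-1, was at 4.41, 9.39 and 1.55 FPKM across MI and at 6.32, 4.82 and 0.0464 FPKM across Normal.

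Genes of sphingosine-1-phosphate (S1P) handling and the Clec14a relatives held the 3 partners with an unadjusted p under 0.05, each with all MI libraries above all Normal libraries, as in 25% of all tested genes. S1pr2, a second S1P receptor, was at 6.19, 18.4 and 4.55 FPKM across MI and at 2.70, 3.53 and 0.0909 FPKM across Normal (log2 difference 1.80, SE 0.80, adjusted p = 0.304 by limma). Sphk2, a kinase that makes S1P, was at 2.84, 6.22 and 2.58 FPKM across MI and at 1.52, 0.738 and 0.467 FPKM across Normal (log2 difference 1.32, SE 0.54, adjusted p = 0.281 by limma). Cd248, a lectin-domain relative of Clec14a known from fibroblasts and pericytes, was at 24.5, 18.5 and 11.8 FPKM across MI and at 4.65, 4.68 and 0.224 FPKM across Normal (log2 difference 2.44, SE 0.80, adjusted p = 0.250 by limma). Of these lists 0 of 5 and 0 of 4 tested genes passed with all libraries. Mmrn2, the matrix ligand of CLEC14A, which the endothelial marker list also holds, was at 21.7, 26.4 and 4.72 FPKM across MI and at 27.4, 14.9 and 0.191 FPKM across Normal. In both groups its lowest library was that of Clec14a. Without Normal Ms1608, Sgpl1, the lyase that breaks S1P down, passed the limma threshold (log2 difference 2.35, SE 0.53, adjusted p = 0.0449, in a range of 0.0101 to 0.940 over the alternatives run), with 4.51% of all tested genes passing. It was at 10.7, 19.1 and 14.4 FPKM across MI and at 3.19, 1.17 and 19.4 FPKM across Normal, and the leukocyte marker sums given above were likewise high in MI and in Normal Ms1608. Their part in the Sgpl1 values was not tested.

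The remaining partners gave 1 tested Robo and Slit gene, 2 sialomucins and 1 cadherin, and 0 of these 4 passed. Unc5b, a netrin receptor that binds ROBO4, was at 8.81, 17.4 and 3.46 FPKM across MI and at 20.2, 15.1 and 0.253 FPKM across Normal (log2 difference 0.30, SE 1.10, adjusted p = 0.905 by limma). Cd34, a sialomucin of endothelium and blood progenitors, had a log2 difference of 1.39 (SE 1.22, adjusted p = 0.559 by limma). Cdh13, T-cadherin, had 0.17 (SE 1.07, adjusted p = 0.945 by limma). Without Normal Ms1608 the signs of all 3 turned, to -0.99, -0.22 and -0.68.

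**Figure D5:**
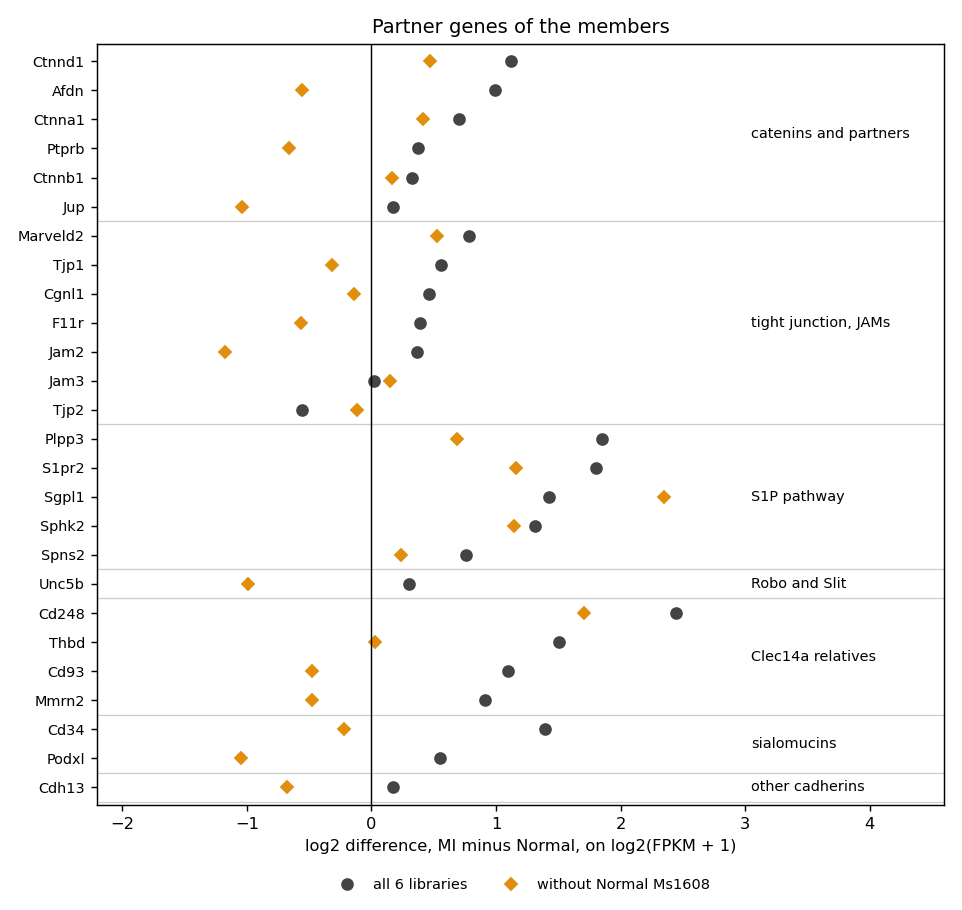
Log2 difference (MI minus Normal on log2(FPKM + 1)) of the 26 tested partner genes, grouped by role, with all 6 libraries in grey and without Normal Ms1608 in orange. With all libraries 25 of 26 lie above 0 and without Normal Ms1608 12 do.

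The genes most like 4 of the members were ranked by Pearson's r of log2(FPKM + 1) over the 6 libraries among 8774 tested protein-coding genes. These are descriptions with no test, over libraries that include Normal Ms1608. For Cdh5 they were Efnb2 (r = 0.998), Tjp1 (r = 0.997) and Fam171a1 (r = 0.995). For Pecam1 they were Gpx4 (r = 0.982), Tcf4 (r = 0.965) and Psme2 (r = 0.960). For Icam2 they were Lsamp (r = 0.987), Lmcd1 (r = 0.985) and Trp53i11 (r = 0.985), and for Cdh2 Ttc7b (r = 0.990), Nkain4 (r = 0.988) and Icos (r = 0.974). Tjp1 is itself one of the partner genes. Nkain4 was at 48.8, 1.98 and 1.11 FPKM across MI and at 0.119, 0.298 and 0.115 FPKM across Normal. Its highest library was MI Ms1535, like that of Cdh2.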

How the data were processed

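RNA of the sorted cells was amplified by T7 transcription before sequencing, per the labels' protocols, and such amplification can widen the spread between libraries. The deposited FPKM values were made by the authors with STAR 2.4.2a and Cufflinks 2.2.1 on GRCm38, per the submitters' processing notes. The annotation release and strand setting are not given in the sources used here. The members, gene lists and rules were chosen with earlier results of these data known.

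A gene was tested if 3 or more libraries reached 1 FPKM (10168 of 45038). The test was limma 3.58.1 (R 4.3.3) on log2(FPKM + 1), using its trend option and the group as the only term. This scale understates changes of low genes. P-values were adjusted over all tested genes, and the fit was tested on simulated data. The simulation took its spread from the MI libraries, with a cap, and held no library that stood apart. It therefore does not show how the fit behaves with a library like Normal Ms1608. Positions came from GENCODE M21, which held 44394 of the identifiers. Depth came from genes with 1 annotated transcript. Their low values, multiplied by length less 150 bases and by the fitted total, lay within 0.1 of whole numbers in 92.4% to 93.9% of cases, where evenly spread values give 20%. The total was fitted on these same values. On a 2 kb transcript 3 fragments are 0.0341 to 0.0477 FPKM, which covers counting error only. The labels state a lower number of reads, and this was not reconciled.

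All members were named, with Kdr, Tek, Ptprc and Col1a1 to show what each library held. In each partner list the tested gene with the lowest p was named where none passed, and for 4 members the 3 most correlated genes were. Ctnnb1, Jup, Tjp1, S1pr2, Sgpl1, Mmrn2, Cd3e, Myl2, Cd52, Egfl7, Pf4, Rgs5, Pdgfrb and Des were named after their values were seen. The alternatives were other pseudocounts, filters and scalings, array weights, no trend, the replicate number as a block, and libraries left out.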

Additional observations from a re-analysis of the deposited data

How the results depend on the processing

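The count of members past the threshold was 0 under all other settings except array weights, where it was 1, and 0 to 0 when each library was left out in turn. The count of partners past the threshold was 2 of 26 with array weights (Sgpl1 and Cd248), where 32.3% of all tested genes passed, 2 of 26 without both Ms1608 libraries (the same 2), where 14.4% passed, 0 to 1 over the fits that leave out 1 library, with Sgpl1 called without Normal Ms1608, and 0 elsewhere. Whether the numbers pair the libraries is not stated: the deviations of same-numbered libraries correlated at -0.052, 0.098 and 0.087, and not every library correlated best with its own number. With the replicate block the count was 0 for members and 0 for partners. The log2 differences that changed sign were as follows. With quantile scaling they were Cdh5 -0.10, Esam -0.34, Cldn5 -1.10, Emcn -0.40, Robo4 -1.25 and Clec14a -0.99. With array weights they were Cdh5 -0.085, Esam -0.45, Cldn5 -0.96, Emcn -1.03, Robo4 -1.09 and Clec14a -0.96. With median-ratio scaling, Normal Ms1608 left out they were Cdh5 -1.29, Esam -1.84, Cldn5 -1.78, Emcn -2.12, Robo4 -1.88 and Clec14a -2.25. With upper-quartile scaling, Normal Ms1608 left out they were Cdh5 -1.40, Esam -1.95, Cldn5 -1.89, Emcn -2.23, Robo4 -1.98 and Clec14a -2.36. With quantile scaling, Normal Ms1608 left out they were Cdh5 -1.23, Esam -1.76, Cldn5 -1.90, Emcn -1.998, Robo4 -1.99 and Clec14a -2.23. With median-ratio scaling they were Esam -0.12, Cldn5 -0.53, Emcn -0.25, Robo4 -0.64 and Clec14a -0.58. With upper-quartile scaling they were Esam -0.037, Cldn5 -0.54, Emcn -0.15, Robo4 -0.65 and Clec14a -0.55. With both Ms1608 libraries left out they were Esam -0.32, Cldn5 -0.47, Emcn -0.60, Robo4 -0.66, Clec14a -0.60, Pecam1 0.15 and S1pr1 0.36. With a pseudocount of 5 they were Cldn5 -0.021, Robo4 -0.090 and Clec14a -0.099. Over the fits that leave out 1 library the range was Cdh5 -0.34 to 1.85, Esam -0.90 to 2.05, Cldn5 -0.92 to 1.09, Emcn -1.16 to 1.65, Robo4 -1.02 to 0.81, Clec14a -1.32 to 1.18, Pecam1 -0.91 to -0.11, Icam2 -1.32 to 0.38, S1pr1 -1.27 to 0.17 and Cdh2 0.36 to 1.26. Leaving out Normal Ms1608 turned the sign of the 6 endothelial members and S1pr1, leaving out MI Ms1537 that of Cldn5 (-0.51), Robo4 (-0.52) and Clec14a (-0.29), and leaving out MI Ms1535, Normal Ms1535 or Normal Ms1537 that of Icam2 (0.05, 0.38 and 0.26). The cause of these turns was not tested. No filter on low values changed a sign. Depth was looked at for 3 members, and the Cldn5 value in Normal Ms1608 rests on 6.06 implied fragments.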
